A study of Mus musculus with 2 samples.

Results

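The miR-23/27/24 microRNAs are encoded as a pair of paralogous clusters. Their mature forms were measured here in RNA from microvesicles that 3T3-L1 cells, treated to differentiate into adipocytes, release into the culture medium. The 5 array entries mmu-miR-23a, mmu-miR-23b, mmu-miR-27a, mmu-miR-27b and mmu-miR-24 were taken by name, without the starred entries of the opposite strand, out of 567 mouse miRNA entries on the array. The 3T3-L1 line consists of mouse preadipocytes that fill with lipid and become adipocytes after hormonal induction. The day 8-10 vesicles came from medium conditioned by the cells over 48 h from day 8 to day 10, and the day 2-4 vesicles from medium conditioned over 48 h from day 2 to day 4. Both preparations came from cells in high-glucose DMEM with 10% fetal calf serum treated to differentiate with dexamethasone (0.25 µM), 3-isobutyl-1-methylxanthine (0.5 mM) and insulin (10 µg/ml). Each window was measured on 1 one-colour array. With no replicates, differences between the windows carry no p-value. The time window cannot be told apart from the preparation and the hybridisation. The number of arrays limits the precision. Standard errors come from the spread of replicate spots and measure technical noise alone. No value separates miRNA of the cells from miRNA of the serum.

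In each cluster the miRNAs are cut from a shared primary transcript, so that miR-23, miR-27 and miR-24 are transcribed together and then processed and degraded one by one. miR-27a and miR-27b are known as repressors of adipocyte differentiation that act on the messenger RNA of Pparg, the master transcription factor of fat cells. The clusters are also known from endothelial cells, where they act in blood vessel growth, and miR-24 is known for restraining cell cycle genes.

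The mature sequences decide what the array can tell apart. They are shown for the members found in the RefSeq table (GRCm38.p6), all on the plus strand and written from 5′ to 3′, with the seed (bases 2 to 8, the part that pairs with target messages) in capitals.
miR-23a-3p: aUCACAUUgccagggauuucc
miR-27a-3p: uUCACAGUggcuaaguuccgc
miR-27b-3p: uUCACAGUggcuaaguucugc
miR-24-3p: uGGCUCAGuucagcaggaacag
miR-27a and miR-27b have the same seed and differ at 1 of 21 bases, C19U in the direction from miR-27a to miR-27b, counted from the 5′ end. miR-23a and miR-27a have different seeds that are equal at 6 of their bases, and both hold UCACA from base 2 to base 6. miR-24 has an unrelated seed. Its mature sequence is the same from both of its genes, so its value is a sum over both clusters.

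In GRCm38.p6, miR-23a-3p lies at chr8:84208563-84208583, miR-27a-3p at chr8:84208727-84208747 and the miR-24-3p of Mir24-2 at chr8:84208875-84208896. The table places no gene over this cluster, which lies between Nanos3 and Zswim4. miR-27b-3p lies at chr13:63300760-63300780 and the miR-24-3p of Mir24-1 at chr13:63301251-63301272. Mir23b, Mir27b and Mir24-1 lie within the protein-coding gene Aopep, and the table does not say whether in an exon or an intron. The files give probe positions without a genome build, and place the miR-24 probes at the chromosome 13 copy alone. Probe ends in the files were 164 bases apart for miR-23a and miR-27a and 492 bases apart for miR-27b and miR-24, the same distances as between the 3′ ends of these mature miRNAs in GRCm38.p6. Probes of 16 to 18 bases that end there cover the miRNAs from base 4, 5 or 6 onwards. The single base by which miR-27a and miR-27b differ would then lie inside all 4 of their probes.

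All 5 entries were detected in both windows, on 8 of their 10 probes. Each entry had a pair of probes with 10 spots per probe, 100 spots per array, and none was saturated. The spots flagged as outliers, 5 at day 8-10 and 1 at day 2-4, were left out. A probe counted as detected when the share of its kept spots flagged well above background exceeded 0.5. One probe of miR-23b was detected at day 2-4 alone, and 1 probe of miR-27b on neither array. Of the 567 mouse miRNAs, measured by 1672 probes on each array, 166 were detected at day 8-10 and 156 at day 2-4, with 145 in both windows. Levels are processed intensities in scanner units, after background subtraction and before any scaling. Levels of different probes are not amounts and are not set against each other.

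No member differed by 2-fold between the windows, in the main setting or in any of the 12 alternatives. Differences are on the log2 scale, day 8-10 minus day 2-4, after each array was divided by the 75th percentile of its probes that were detected in both windows. Among the 145 miRNAs detected in both windows, 15.9% (23) were higher by 2-fold or more at day 8-10. A share of 7.59% (11) were lower by 2-fold or more. In each case the difference was also over 2 spot standard errors. On either side there were 0 of 5 members, which with so few entries does not set them apart from these shares. When every mouse probe entered the 75th percentile, the counts over all miRNAs were 10 higher and 29 lower. The median of all 145 miRNAs was then -0.30 in place of 0.20. The median log2 difference was 0.26 over the 5 members and 0.20 over all 145 miRNAs. Positive differences were found for 3 members and negative ones for 2, and for 91 (62.8%) and 54 (37.2%) of all 145. From the highest difference down, the order was miR-27b, miR-24, miR-27a, miR-23b and miR-23a, at ranks 31, 55, 70, 93 and 103 of 145. The plot of ranks shows the members spread between ranks 31 and 103 of these 145 miRNAs, with miR-27b above the upper quartile (0.73).

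**Figure D1:**
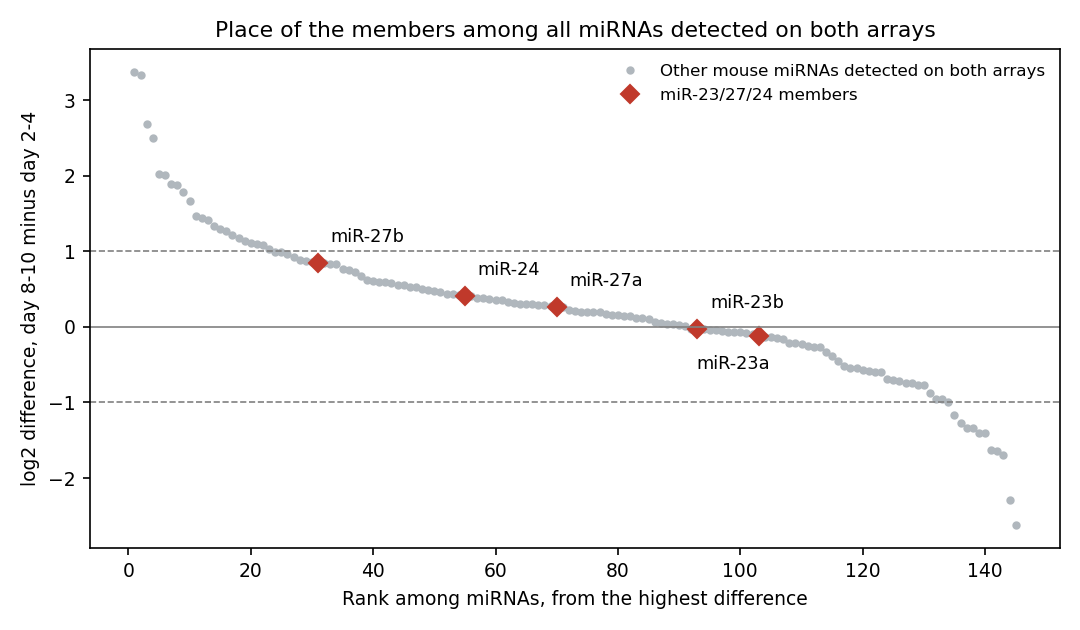
The log2 difference, day 8-10 minus day 2-4, of each of the 145 mouse miRNAs detected on both arrays, ordered from the highest, with the 5 members in red. Dashed lines mark 2-fold. The members lie between ranks 31 and 103, all inside the 2-fold lines.

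miR-27b, encoded in the Aopep cluster, had the highest difference of the members in the main setting. The difference of miR-27b was positive there and in all 12 alternatives, 6 of which moved it by over 2 spot standard errors. Its 17-base probe averaged 14.9 ± 1.05 at day 8-10 and 9.47 ± 1.20 at day 2-4 (SD over 10 spots each). The lowest, median and highest spots were 13.2, 15.2 and 16.6 at day 8-10, against 7.43, 9.79 and 10.9 at day 2-4. All spots were well above background, and the spots of the windows did not overlap, before or after scaling. How many of the 279 probes detected on both arrays lacked such overlap was not counted. An absence of overlap therefore does not set the members apart. The log2 difference was 0.85 (spot SE 0.069), or 1.80-fold higher at day 8-10, with 2 spot standard errors reaching up to 0.99. This rests on 1 probe: the 16-base probe averaged 1.18 at day 8-10 and 1.48 at day 2-4, and none of its spots was well above background. The signal was low, since the spots of the 17-base probe had a raw brightness of 60.7 at day 8-10 and 54.9 at day 2-4 over a local background of 42.8 and 43.9. With normexp background correction and the offset of 50 added with it, the log2 difference was 0.26. The highest value over the alternatives was 0.88.

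miR-27a, the paralog with the same seed, had a smaller difference. Its 17-base probe averaged 232 ± 7.22 at day 8-10 and 220 ± 6.56 at day 2-4 (SD over 10 spots each). Its 16-base probe averaged 63.3 ± 1.92 at day 8-10 and 60.0 ± 3.66 at day 2-4. Spots of the windows overlapped on both probes before scaling and on neither after it. The log2 difference was 0.26 (spot SE 0.018), or 1.20-fold higher at day 8-10, and the probes differed from each other by 0.0011. Its sign depended on the scaling, with 0.079 when no scaling was applied and -0.24 when every mouse probe entered the 75th percentile.

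Between these paralogs, the difference of miR-27b exceeded that of miR-27a by 0.59 (spot SE 0.071), and by 0.098 to 0.59 over the alternatives, 7 of which changed this contrast. A difference of this kind does not depend on dividing an array by a constant. It compares a probe near the background with probes far above it, and it was lowest, at 0.098, with normexp and its offset of 50. Whether miR-27a gave signal on the miR-27b probes, with 20 of 21 bases in common, was not tested.

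miR-23a, which is cut from the same primary transcript as miR-27a, had a small negative difference. Its 18-base probe averaged 335 ± 7.46 at day 8-10 (SD over 9 spots) and 409 ± 12.9 at day 2-4 (SD over 10 spots). Its 17-base probe averaged 94.8 ± 2.65 at day 8-10 and 118 ± 4.02 at day 2-4 (SD over 10 spots each). On both probes every spot was lower at day 8-10 before scaling, while after scaling the spots of the windows overlapped. The log2 difference was -0.12 (spot SE 0.014), or 1.08-fold lower at day 8-10. For miR-23a it was negative in all 12 alternatives, from -0.63 to -0.088, and 4 of them moved it by over 2 spot standard errors. Its probes differed by 0.032, less than the median of 0.10 over the 101 miRNAs with at least 2 probes detected on both arrays.

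miR-23b, the paralog of miR-23a in the Aopep cluster, could not be placed as firmly. Its 17-base probe averaged 19.5 ± 1.20 at day 8-10 (SD over 10 spots) and 25.2 ± 1.68 at day 2-4 (SD over 9 spots). The log2 difference of this probe was -0.19 (spot SE 0.042). Its kept spots did not overlap between the windows before scaling, but did after it. The outlier spot left out at day 2-4, at 18.7, lay within the day 8-10 range of 17.5 to 21.6. Its 16-base probe averaged 3.57 ± 0.59 at day 8-10, where 0 of 9 spots were well above background, and 5.76 ± 1.33 at day 2-4, where 6 of 10 were. For this probe the day 8-10 value is a floor, the lowest detected probe of that array (5.55), which lies above the probe's own signal, so no difference is given for it. The entry as a mean over both probes had -0.031, a value partly set by that floor, as is its rank. Over the alternatives the entry ranged from -0.54 to 0.053, negative in 10 of 12. Whether miR-23a gave signal on the miR-23b probes was not tested either, and no miR-23b sequence was at hand to compare.

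**Figure D2:**
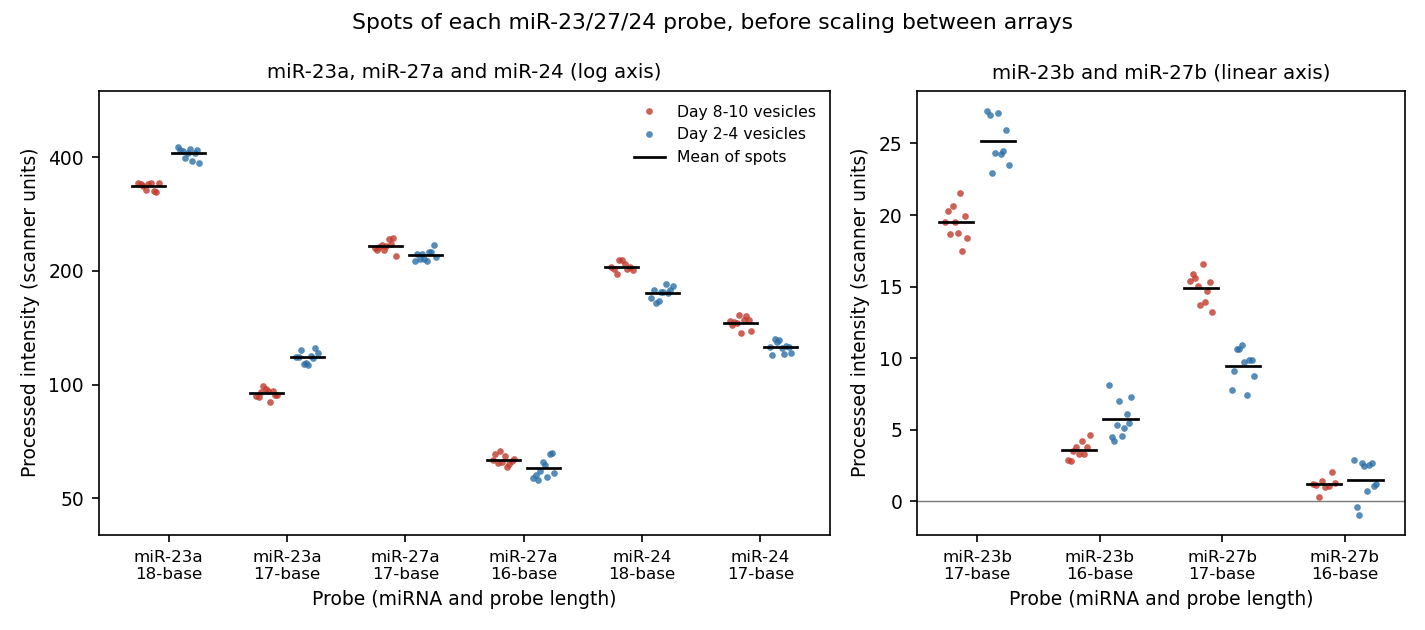
Processed intensity of every spot kept, for each probe of the 5 members, with day 8-10 vesicles (red) left of day 2-4 vesicles (blue) and a black line at the mean of the spots. The left panel has a log axis and the right panel a linear one. Before scaling, the miR-23a probes and the 17-base miR-23b probe are lower at day 8-10, with no overlap of the kept spots. The miR-24 probes and the 17-base miR-27b probe are higher, also without overlap. For the 17-base miR-23b probe this holds only without the outlier spot of 18.7 at day 2-4. After scaling, spots of the miR-23a probes and of this miR-23b probe overlap. How many other probes lacked overlap was not counted.

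miR-24 had a difference between those of miR-27b and miR-27a. Its 18-base probe averaged 205 ± 5.85 at day 8-10 (SD over 9 spots) and 175 ± 6.49 at day 2-4 (SD over 10 spots). Its 17-base probe averaged 146 ± 5.02 at day 8-10 and 126 ± 4.43 at day 2-4 (SD over 10 spots each). The spots of the windows did not overlap on either probe, before or after scaling, with the share over all probes again not counted. The log2 difference was 0.41 (spot SE 0.016), or 1.33-fold higher at day 8-10, and the probes differed by 0.014. When every mouse probe entered the 75th percentile it was -0.10, and in the other 11 alternatives it was positive. Since both clusters give the same miR-24, the share of each cluster in this value cannot be told apart.

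Members of 1 cluster had unequal differences between the windows. In the chromosome 8 cluster, miR-27a exceeded miR-23a by 0.38 on the log2 scale (spot SE 0.023), and by 0.28 to 0.39 over the alternatives. In the Aopep cluster, miR-27b exceeded miR-23b by 1.04 on the probes detected on both arrays (spot SE 0.081). With the floored probe of miR-23b included the contrast was 0.88, and it ran from 0.21 to 1.19 over the alternatives. Signal from the chromosome 8 paralogs on the probes of either side of this contrast was not tested. miR-24, which either cluster can supply, exceeded miR-23a by 0.53 (spot SE 0.021), and by 0.40 to 0.79 over the alternatives. The signs of these contrasts did not turn in any alternative that changed their values, 7 of 12 for miR-27a against miR-23a and for miR-24 against miR-23a, and 10 of 12 for miR-27b against miR-23b. The difference of miR-23a exceeded that of its paralog miR-23b by 0.068 (spot SE 0.045) on the probes detected on both arrays, but over both probes of miR-23b the contrast had the opposite sign, which turned in 5 of 12 alternatives. miR-27b exceeded miR-24 by 0.44 (spot SE 0.070), and this turned to -0.15 with quantile normalization and to -0.025 with normexp. Spot errors do not cover variation between preparations, so the size of these contrasts has no replicate check. For comparison, the log2 differences of all 145 miRNAs had an SD of 0.94, and the probes of 1 miRNA differed by up to 0.48 in 90% of the 101 miRNAs with several probes.

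**Figure D3:**
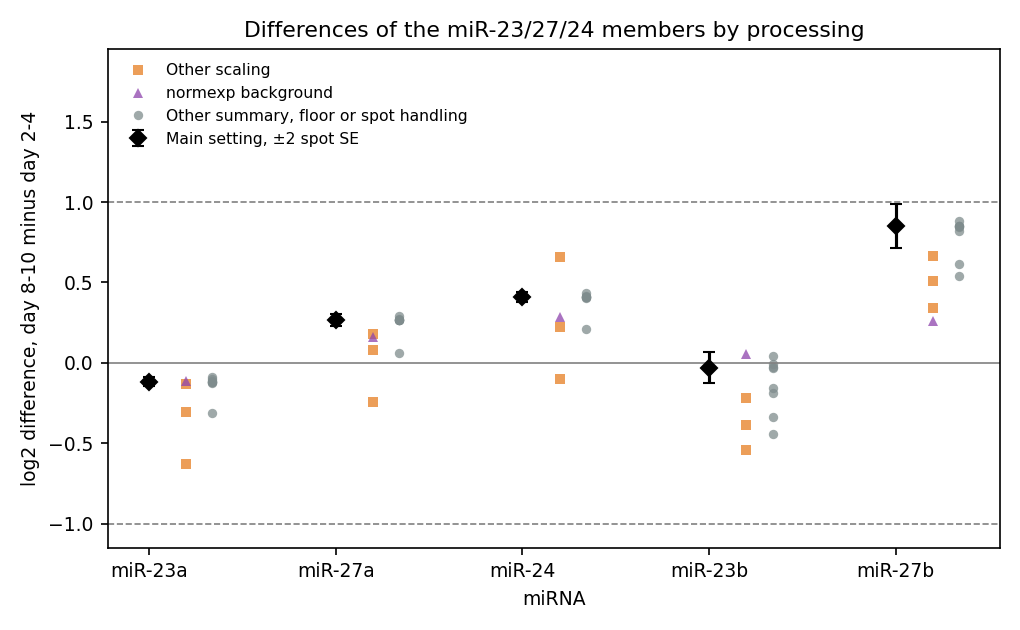
The log2 difference of each member, day 8-10 minus day 2-4, in the main setting (black, with 2 spot standard errors either way) and in the alternatives. Dashed lines mark 2-fold. miR-23a lies below 0 and miR-27b above 0 in every setting, while miR-27a, miR-24 and miR-23b lie on both sides.

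Of the 6 opposite strands of the same hairpins, 4 had an entry on the array and none of these was detected. They were miR-27a*, miR-27b*, miR-24-1* and miR-24-2*, with 12 probes and 80 spots per array. Of these, 0 of 80 spots were well above background at day 8-10 and 0 of 80 at day 2-4. Their processed intensities ran from -3.02 to 3.04 at day 8-10 and from -1.83 to 2.61 at day 2-4, below the lowest detected probe of each array, at 5.55 at day 8-10 and 4.86 at day 2-4. These values therefore do not show whether miR-24 came from the hairpin of one cluster or the other.

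Other miRNAs known to repress adipogenesis were taken as a list of 12, of which 5 were detected in both windows. Of those 5, 0 were at least 2-fold higher, against 15.9% of all 145, and 0 at least 2-fold lower, against 7.59%. Their median log2 difference was 0.20, against 0.26 for the members and 0.20 for all miRNAs. When every mouse probe entered the 75th percentile, 1 of the 5 was at least 2-fold lower, against 29 of all 145. Their median was then -0.31, against -0.30 for all 145. miR-130a, which also acts on Pparg, had 0.46 (spot SE 0.016). Smaller positive values belonged to miR-31 (0.26) and miR-224 (0.20). Negative values belonged to miR-221 (-0.57) and miR-125b-5p (-0.25). miR-138 and miR-155 were detected at day 2-4 alone. Of 20 spots, 12 (miR-138) and 17 (miR-155) were well above background at day 2-4, against 1 and 3 at day 8-10. All 13 miRNAs on a list of those known from adipocytes were detected in both windows, and 9 of them were at least 2-fold higher at day 8-10, with a median of 1.09, against 15.9% of all 145. When every mouse probe entered the 75th percentile, 2 of the 13 were, against 10 of all 145. With normexp, 2 of the 13 were, against 5 of all 145. In the main setting 11 of the 13 had positive differences and 2 negative ones. Both lists were chosen with earlier results of these data known, so these counts are descriptions. Among the 140 other miRNAs detected on both arrays, the differences nearest to the members' median of 0.26 were those of miR-31 (0.26), miR-20a (0.28) and miR-574-5p (0.29). This likeness is a single difference between 2 arrays.

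Markers of other cell types were looked up beside these values. The endothelial miR-126-3p and miR-126-5p each had 0 of 20 spots well above background on both arrays, so neither was detected. Of the 7 blood miRNAs, which serum also carries, 4 were detected at day 8-10 and 3 at day 2-4, with 3 in both windows. Those 3 had log2 differences of 0.043 (miR-451, erythroid), 0.046 (miR-486, erythroid) and -0.22 (miR-223, myeloid). miR-144, also erythroid, was detected at day 8-10 alone, with 17 of 20 spots well above background at day 8-10 and 0 of 20 at day 2-4. None of the 4 muscle, 2 neural and 1 liver entries was detected. Of the 7 fibroblast and mesenchymal miRNAs, 6 were detected in both windows, with a median log2 difference of -0.40. Of these 6, 2 were at least 2-fold lower at day 8-10, miR-214 (-1.63) and miR-199a-5p (-1.40), against 7.59% of all 145, and miR-199b had -0.95, while miR-143 (0.77), miR-22 (0.59) and miR-21 (0.16) had positive values. miR-143 also stands on the adipocyte list. The part of the blood and mesenchymal miRNAs in the values of the members was not tested.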

How the data were processed

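Total RNA (100 ng) from vesicles prepared by ultracentrifugation was labelled with Cy3 and hybridised to 1 array per window, per the labels' protocols. The arrays shared 1 slide and 1 scan. Per the file headers, the authors' deposited intensity values came from version 9.5.3.1 of Agilent's Feature Extraction software: a fitted background surface was subtracted from each spot, with no normalization between arrays. The series value table held the same intensities for all 12493 spots of each array. Control spots and outlier spots (249 at day 8-10, 237 at day 2-4 among mouse miRNA spots) were left out. Spots were raised to a floor at the lowest detected probe of their array (5.55 at day 8-10, 4.86 at day 2-4). They were then divided by a scale factor per array, the 75th percentile of the 279 probes that both arrays detected (95.2 and 108). The floors were therefore unequal after scaling. Values were log2 transformed and averaged per probe, then over the probes detected on at least 1 array. Python 3.11.15 and, for normexp with an offset of 50, limma 3.58.1 were used. The calculation was tested on simulated data, with both simulated arrays built from the day 2-4 array. They shared the same scale and background, so this test does not bear on the choice of scaling or background correction. With 1 array per window no test was made. The members, lists and settings were chosen with earlier results of these data known. Named miRNAs were the members, the opposite strands, the detected repressors and the 3 nearest in difference. The endothelial, blood and mesenchymal markers named fall outside this rule and were chosen after their values were seen. Sequences are from RefSeq.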

Additional observations from a re-analysis of the deposited data

How the results depend on the processing

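No paired analysis was possible because each window had 1 array. An alternative was taken to move a value when it shifted it by more than 2 spot standard errors, or a count by more than 1.5 times. When every mouse probe entered the 75th percentile, the log2 differences were -0.63 (miR-23a), -0.54 (miR-23b), -0.24 (miR-27a), 0.34 (miR-27b) and -0.10 (miR-24), with a member median of -0.24, and 10 miRNAs were at least 2-fold higher and 29 lower, against 23 and 11. The median over all 145 miRNAs was then -0.30. Without scaling they were -0.30, -0.22, 0.079, 0.66 and 0.22 in the same order, with a median of 0.079. With the scanner software's summed gene signal they were -0.31, -0.44, 0.064, 0.54 and 0.21, with a median of 0.064, and 18 miRNAs were at least 2-fold lower. With quantile normalization miR-23b had -0.39, miR-27a 0.18, miR-27b 0.51 and miR-24 0.66, with a median of 0.18 and 17 miRNAs lower. With normexp and an offset of 50, miR-27a had 0.16, miR-27b 0.26 and miR-24 0.29, with a median of 0.16, and 5 miRNAs were higher and 5 lower. miR-23b had -0.19 with its brightest probe alone and -0.34 with a floor of 1 intensity unit. The latter lowers the floor that had set the day 8-10 value of its 16-base probe. Where every spot had to be well above background, miR-23b had -0.16 and miR-23a -0.088. miR-27b had 0.61 over all its probes, including the 16-base probe that neither array detected. Every kept spot of that probe lay below the floor, so its value of 0.38 is the difference of the scaled floors. Without the floors that probe had -0.15. Dividing by another constant, or by none, moves every member equally. Without scaling each was lower by 0.19, the log2 ratio of the scale factors. The cause of the shifts not set by a constant or by the floors was not tested. Keeping outlier spots, taking the median over spots, and averaging intensities before the log2, the last chosen after seeing the data, moved no member by more than 2 spot standard errors. Signal near background limits miR-27b and miR-23b, each of which has 1 of 2 probes detected on both arrays.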
